A study of Mus musculus with 3 samples.

Results

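The nuclei described here were chosen by raw counts of unique molecular identifiers (UMIs), each of which stands for one captured transcript. A nucleus was a member when Gpr149, Ets1, Kit and Etv1 together had at least 3 UMIs and 4 other sums stayed low. The microglial genes Inpp5d, Ptprc, Fyb and Adgre1, the neuronal genes Rbfox3, Dcx, Gad2 and Dlx6os1, and the cell-cycle genes Top2a, Mki67, Kif11 and Knl1 each had to sum to under 3 UMIs, and Bcas1, Gpr17 and Enpp6, genes of precursors committed to the oligodendrocyte fate, to under 8. The rule found 843 of 12549 nuclei, or 6.72%. Its working label, a transitional state rich in the CBP-ablated library and marked by Gpr149, Ets1, Kit, Etv1, Syt1 and Smoc1, held only for part of these nuclei, and they are called member nuclei or members below.

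Single-nucleus RNA was measured in differentiated cultures of neurospheres, which are floating aggregates grown from neural stem cells of the subventricular zone of newborn mouse pups (P0 to P3, C57BL/6 background). CBP and p300, encoded by Crebbp and Ep300, are paralogous lysine acetyltransferases that serve as transcriptional coactivators, and the study asked what each contributes to the formation of neurons, astrocytes and oligodendrocytes. There was 1 library for each condition, made from a pool of about 15 cultures at day 15 in vitro with 16000 nuclei loaded. The CBP-ablated library came from Crebbp f/f cells and the p300-ablated library from Ep300 f/f cells, both infected with a lentivirus that carries Cre and mCherry (LV-CRE-mCherry). The control cultures received a lentivirus with RFP alone (LV-RFP), and the methods describe cultures from floxed mice only, without saying which floxed line supplied this control library. The methods describe no restriction of Cre to a chosen cell type, and nuclei were sorted by RFP or mCherry. The sample labels name tamoxifen as the treatment of all 3 samples, whereas the methods describe only the lentiviral Cre.

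Oligodendrocyte precursors divide under the control of the PDGF receptor encoded by Pdgfra, and on the way to myelinating cells they pass through short-lived stages with transcripts of their own. Ets1 and Etv1 encode ETS-family transcription factors, many of which are activated by the ERK kinases downstream of receptor tyrosine kinases, and Kit encodes such a receptor, whose ligand is stem cell factor. Gpr149 encodes an orphan G protein-coupled receptor. Of the other marker genes, Syt1 encodes the calcium sensor of synaptic vesicle release and Smoc1 a secreted matricellular protein that antagonizes bone morphogenetic proteins.

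In the GRCm38 annotation, Gpr149 (ENSMUSG00000043441) lay on the minus strand of chromosome 3 from 62529077 to 62605140, and Ets1 (ENSMUSG00000032035) on the plus strand of chromosome 9 from 32636221 to 32757820. Kit (ENSMUSG00000005672) spanned 75574916 to 75656722 on the plus strand of chromosome 5, and Etv1 (ENSMUSG00000004151) spanned 38779380 to 38870484 on the plus strand of chromosome 12. Syt1 (ENSMUSG00000035864) occupied 108497650 to 109010982 on the minus strand of chromosome 10, and Smoc1 (ENSMUSG00000021136) 81026808 to 81186414 on the plus strand of chromosome 12. Reads were counted over exons and introns, so longer genes collect more UMIs, and ratios are taken only within a gene. Where genes are ranked by level or by share of UMIs, gene length was not corrected for. Because the rule joins a receptor kinase with ETS factors, the promoters of the receptor gene Kit and the ETS gene Etv1 are shown, each 300 bases from RefSeq (GRCm38.p6, plus strand, 250 bases before the start and 50 after it), at chr5:75574737-75575036 and chr12:38779832-38780131. RefSeq lists 2 starts for each gene and 1 is shown. The window of Etv1 lies inside the gene as the annotation above bounds it, downstream of its first base. Capitals mark AGGAAG, the ETS core with its flanks, searched on both strands together with its reverse CTTCCT. It was chosen after CCGGAA, another ETS motif searched on both strands, had given 0 matches in either promoter.
Kit: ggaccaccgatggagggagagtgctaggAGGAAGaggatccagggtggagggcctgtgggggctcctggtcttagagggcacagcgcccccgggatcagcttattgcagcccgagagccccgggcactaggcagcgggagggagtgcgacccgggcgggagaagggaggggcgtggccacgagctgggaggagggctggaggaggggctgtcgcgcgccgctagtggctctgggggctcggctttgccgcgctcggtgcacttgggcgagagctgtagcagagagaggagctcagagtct
Etv1: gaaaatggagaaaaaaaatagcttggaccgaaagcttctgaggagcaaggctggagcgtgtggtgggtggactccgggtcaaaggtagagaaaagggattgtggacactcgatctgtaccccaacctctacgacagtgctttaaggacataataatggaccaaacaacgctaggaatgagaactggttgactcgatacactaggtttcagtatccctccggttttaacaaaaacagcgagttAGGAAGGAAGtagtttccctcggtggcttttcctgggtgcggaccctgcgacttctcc
The Kit promoter held 1 match and the Etv1 promoter 2 that overlap by 2 bases. AGGAAG or CTTCCT occurred in 11613 of 32851 promoters (35.4%) and CCGGAA or TTCCGG in 4894 (14.9%), so a match is common and describes only the letters of these windows.

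The control, CBP-ablated and p300-ablated libraries held 4884, 3017 and 4648 nuclei and 16312170, 12748336 and 18876682 UMIs. Member nuclei numbered 281 of the control nuclei (5.75%, 95% exact binomial interval 5.12% to 6.44%). The CBP-ablated library had 230 (7.62%, 6.70% to 8.63%) and the p300-ablated library 332 (7.14%, 6.42% to 7.92%). The share was larger in both ablated libraries than in the control, and the p300-ablated interval overlapped those of both other libraries. With 1 library for each condition there is no replicate check. All intervals in this text cover counting error only, nuclei of 1 library are not replicates, and no p-value is given.

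The median member nucleus had 3580, 3667 and 4494 UMIs, in the order control, CBP-ablated and p300-ablated, against 3186, 4051 and 3859 in the other nuclei. Members were thus deeper than the rest in the control and p300-ablated libraries and shallower in the CBP-ablated one. A threshold on raw UMIs is easier to pass in a deep nucleus. When every nucleus was thinned to 3000 UMIs, which left 2883, 2371 and 3531 nuclei deep enough, the rule was met by 5.27% (4.48% to 6.15%) of control nuclei, 5.44% (4.56% to 6.43%) of CBP-ablated nuclei and 4.53% (3.87% to 5.27%) of p300-ablated nuclei, and all 3 intervals overlapped. Thinned to 1500 UMIs with a sum of 2 or more in place of 3, which left 4636, 2922 and 4513 nuclei, the shares were 5.05% (4.43% to 5.72%), 7.39% (6.47% to 8.40%) and 5.07% (4.45% to 5.76%). These settings differ in both depth and threshold. The interval of the CBP-ablated library lay above the others in the second and not in the first, and the intervals of the p300-ablated and control libraries overlapped in both. Few cell barcodes occurred in more than 1 library (3, 7 and 1 for the pairs control with CBP-ablated, control with p300-ablated and CBP-ablated with p300-ablated), and 0 of them were members in both libraries of a pair. Called doublets made up 16 of the control members (5.69%), 7 of the CBP-ablated members (3.04%) and 26 of the p300-ablated members (7.83%), against 3.80%, 2.37% and 3.41% of the other nuclei.

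The libraries parted at higher sums of the 4 genes. At a sum of 3 exactly there were 157, 86 and 189 members in the control, CBP-ablated and p300-ablated libraries, and at 4 or 5 there were 88, 79 and 109. At 6 or more there were 36 control nuclei (0.737% of the library, 0.517% to 1.02%), 65 CBP-ablated nuclei (2.15%, 1.67% to 2.74%) and 34 p300-ablated nuclei (0.731%, 0.507% to 1.02%). Sums of 10 or more were met in 3 control, 14 CBP-ablated and 4 p300-ablated nuclei, and the highest sum was 11, 18 and 10. These sums chose the members and are given as a description. At 6 or more the interval of the CBP-ablated library lay above those of both other libraries, which it did not at the threshold of the rule.

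**Figure D1:**
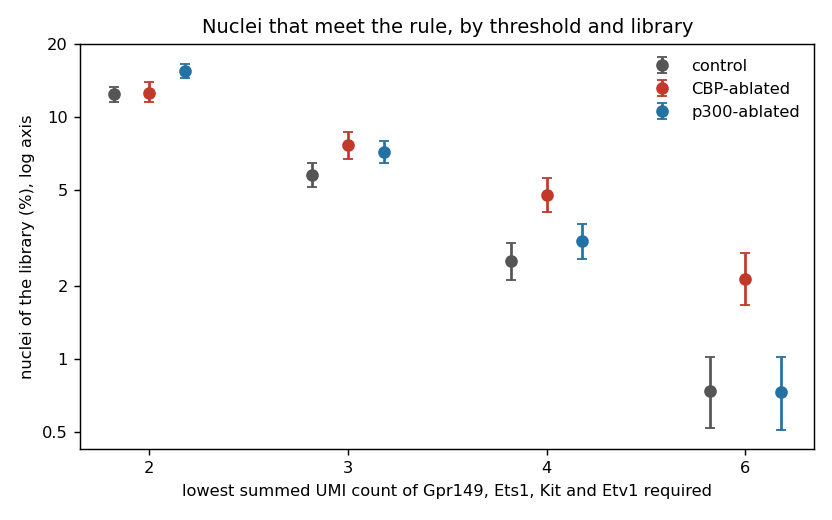
Percentage of all nuclei of each library (log axis) that passed the exclusions and had at least 2, 3, 4 or 6 summed UMIs of Gpr149, Ets1, Kit and Etv1. Points are shares and bars 95% exact binomial intervals of 1 library each, and at 6 or more the CBP-ablated library (2.15%) lies above the control (0.737%) and p300-ablated (0.731%) libraries.

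Just outside the rule, 323 control, 151 CBP-ablated and 388 p300-ablated nuclei passed the exclusions with a sum of 2. The exclusions removed 65, 108 and 81 nuclei whose 4 genes summed to 3 or more. The most in the CBP-ablated library fell to the limit on Bcas1, Gpr17 and Enpp6 (53 nuclei, against 32 and 34) and to the cell-cycle limit (43, against 24 and 30), while the microglial limit removed 0, 2 and 2. Members with 4 to 7 UMIs of Bcas1, Gpr17 and Enpp6, just inside that limit, numbered 33, 54 and 41. Nuclei with 8 to 11, just outside it, numbered 14, 17 and 13. Before any exclusion, 7.08%, 11.2% and 8.89% of nuclei reached a sum of 3.

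Etv1 carried the sum in every library, and Gpr149 was the gene in which the libraries differed most. Levels are UMIs summed over the members of a library and scaled to their total (CPM, the usual count scaled for depth). Etv1 stood at 611 CPM in control, 627 in CBP-ablated and 468 in p300-ablated members and gave 59.1%, 49.7% and 57.6% of all UMIs of the 4 genes. It was detected in 86.1%, 79.1% and 85.2% of members, and 85, 40 and 86 members had no other gene of the 4. Gpr149 stood at 104 CPM in control, 210 in CBP-ablated and 37.5 in p300-ablated members. It was seen in 60 control members (21.4%), 81 CBP-ablated members (35.2%) and 42 p300-ablated members (12.7%), so that most members in each library had no Gpr149 UMI. As a share of all nuclei, members with a Gpr149 UMI made up 1.23% (0.939% to 1.58%), 2.68% (2.14% to 3.33%) and 0.904% (0.652% to 1.22%).

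Kit was highest in the CBP-ablated members, at 254 CPM against 154 in control and 167 in p300-ablated members. Ets1 differed least, at 165, 170 and 140 CPM. The same order held for Gpr149 outside the members, where all other nuclei had 7.61 CPM in control, 17.1 CPM with CBP ablated and 4.56 CPM with p300 ablated, and for Kit, with 17.5, 32.8 and 22.5 CPM.

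Free RNA can place UMIs in nuclei that do not express a gene. Microglial nuclei, those with at least 3 UMIs of the microglial sum, are given for comparison. There were 146, 61 and 52 of them in the control, CBP-ablated and p300-ablated libraries, and Gpr149 was seen in 0, 0 and 0, which allows shares of up to 2.05%, 4.92% and 5.77% (3 nuclei of the total). Kit was seen in 0, 2 and 2 of them, Ets1 in 16, 4 and 9, and Etv1 in 22 (15.1%), 6 (9.84%) and 12 (23.1%), at median depths of 1477, 1392 and 2306 UMIs. Members were chosen for these genes and were deeper, so their shares had to be higher. In microglial nuclei Ets1 stood at 66.9, 30.5 and 87.8 CPM, above the 21.3, 19.3 and 22.7 CPM of all other nuclei. Etv1 stood at 96.6, 91.5 and 100 CPM there, against 77.4, 58.7 and 79.7 CPM. Microglial values of these genes are thus no plain measure of free RNA, and its part in them was not tested. Most members had more than 1 of the 4 genes, with 2 or more in 176 control (62.6%), 161 CBP-ablated (70.0%) and 220 p300-ablated members (66.3%). All 4 or 3 of them were present in 40 control, 45 CBP-ablated and 48 p300-ablated members, or 0.819%, 1.49% and 1.03% of all nuclei, whereas 105, 69 and 112 members had 1 gene only.

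**Figure D2:**
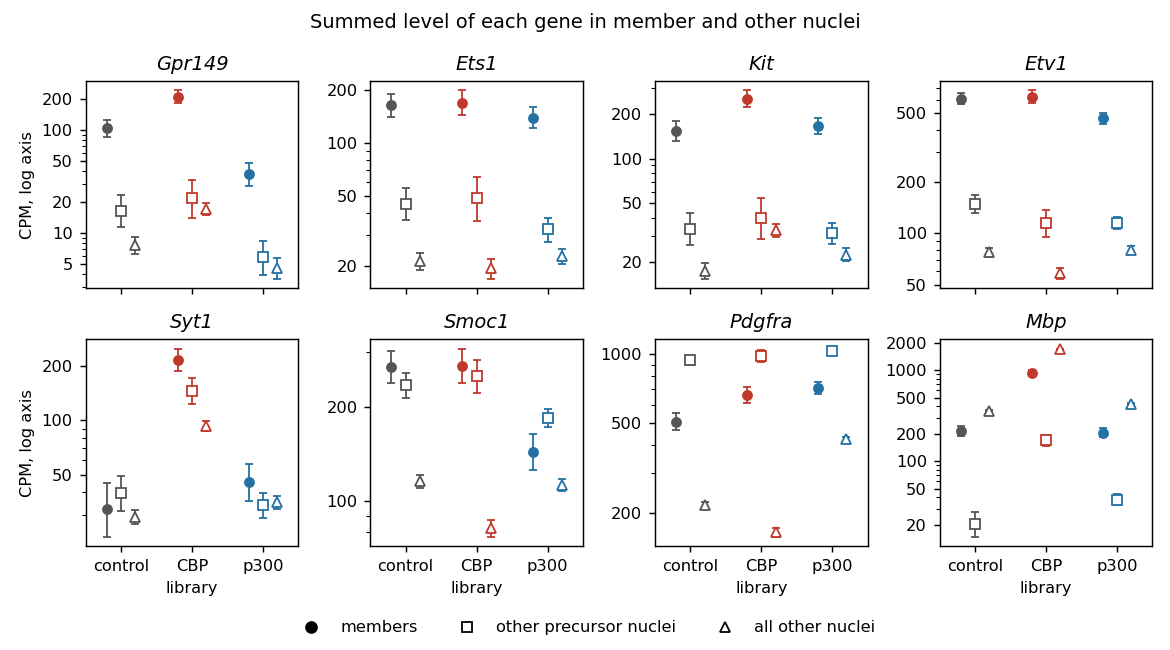
Summed level (CPM, log axis) of 8 genes in member nuclei, in other precursor nuclei (nonmembers that passed the same exclusions with at least 5 UMIs of Pdgfra, Cspg4 and Megf11) and in all other nuclei of each library, with 95% exact Poisson intervals. Gpr149, Ets1, Kit and Etv1 chose the members, Syt1 is high in each set of the CBP-ablated library (217 CPM in members), and Pdgfra is lower in members than in other precursor nuclei.

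In a clustering of all 12549 nuclei at resolution 0.6, most control and p300-ablated members lay in 1 cluster and most CBP-ablated members in another. The largest of 13 clusters, with Pdgfra, Cspg4 and Megf11 among its leading genes and raised at least 2-fold over other nuclei in 11 of 14 oligodendrocyte precursor markers, is called precursor-like. It held 158 control members (56.2%, 50.2% to 62.1%), 53 CBP-ablated members (23.0%, 17.8% to 29.0%) and 221 p300-ablated members (66.6%, 61.2% to 71.6%). A smaller cluster of 590 nuclei had among its leading genes Gpr149, Syt1, Ets1, Smoc1, Lmo3, Sinhcaf, Plppr1 and Zfp57. It held 50 control members (17.8%, 13.5% to 22.8%), 131 CBP-ablated members (57.0%, 50.3% to 63.5%) and 15 p300-ablated members (4.52%, 2.55% to 7.34%). Members of the CBP-ablated library therefore lay mostly in the Gpr149-led cluster and members of the other libraries mostly in the precursor-like cluster. At a finer resolution of 1.2, the Gpr149-led cluster still held 58.3% of CBP-ablated members. Members of the other libraries lay mainly in a cluster with 8 and another with 10 of the 14 precursor markers raised. These held 31.0% and 23.1% of control members and 28.9% and 31.0% of p300-ablated members, so no single cluster held most of them. The clusters were built from the same counts as the rule, so the placement is a description.

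A further group lay in a cluster led by Kcnj6, a potassium channel gene, with 25 control members (8.90%), 1 CBP-ablated member (0.435%) and 59 p300-ablated members (17.8%). A cluster with all 13 mature oligodendrocyte markers held 10, 21 and 10 members (3.56%, 9.13% and 3.01%) and is called oligodendrocyte-like. A cluster in which most nuclei were called doublets held 13, 6 and 14 members. All other clusters held between 0 and 10 members of a library. Among members with a sum of 6 or more, the Gpr149-led cluster held 13 of 36 in control, 56 of 65 with CBP ablated and 3 of 34 with p300 ablated.

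**Figure D3:**
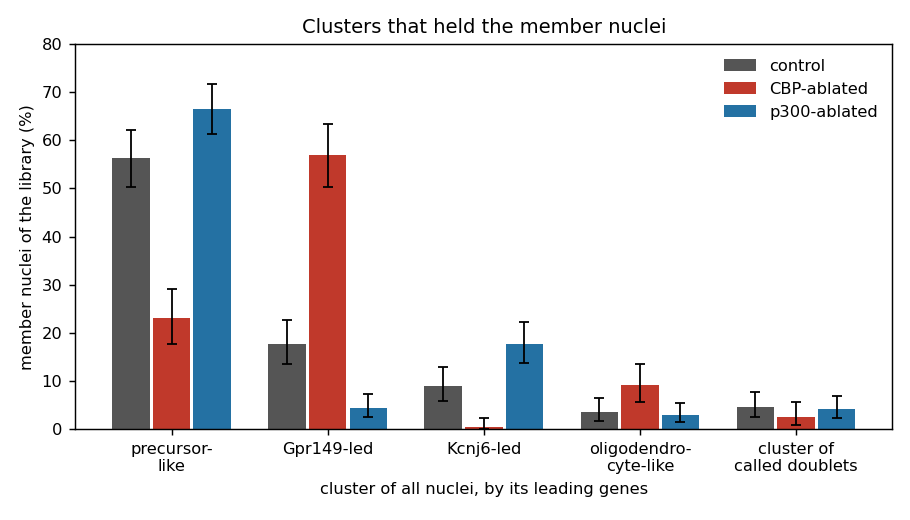
Percentage of the member nuclei of each library found in 5 clusters of all nuclei, with 95% exact binomial intervals. The Gpr149-led cluster holds 57.0% of CBP-ablated members 17.8% of control members and 4.52% of p300-ablated members, and the precursor-like cluster shows the opposite order.

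The Gpr149-led cluster itself made up 195 of the control nuclei (3.99%, 3.46% to 4.58%), 337 of the CBP-ablated nuclei (11.2%, 10.1% to 12.4%) and 58 of the p300-ablated nuclei (1.25%, 0.949% to 1.61%). The rule caught 25.6%, 38.9% and 25.9% of it. Most of its remaining nuclei had a sum under 3 (143, 183 and 42), and the exclusions took 2, 23 and 1. The cluster was raised in all 6 of Gpr149, Ets1, Kit, Etv1, Syt1 and Smoc1, in 5 of the 14 precursor markers, in 3 of 15 neuronal markers and in 0 of the 15 markers of committed precursors. Such marker counts for clusters are given without the share of all genes raised, and whether they exceed it was not tested. Members in the Gpr149-led cluster had a median of 3235 UMIs in control, 3365 in CBP-ablated and 3235 in p300-ablated nuclei.

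Against all other nuclei of the 3 libraries, the genes outside the rule with the largest ratios in members included Prkg2, Megf11, Plppr1, Neto1, Shisa7, Kcnk10, Pdgfra, Kcnh8, Nxph1 and Pcdh15. They encode signalling proteins (the kinase Prkg2, the PDGF receptor Pdgfra), potassium channels (Kcnk10, Kcnh8), partners of transmitter receptors (Neto1, Shisa7) and adhesion proteins (Nxph1, Pcdh15, Megf11). Prkg2, a cGMP-dependent protein kinase, stood at 126 CPM in control, 171 in CBP-ablated and 120 in p300-ablated members, against 51.2, 40.2 and 70.2 in other nuclei. Pdgfra stood at 505, 660 and 712 CPM in members, against 217, 164 and 424. The list of 14 precursor markers had a median log2 ratio over other nuclei of 0.99 in control (7 of 14 at 1 or above), 1.22 in CBP-ablated (9 of 14) and 0.64 in p300-ablated members (0 of 14), where the medians over all genes with enough counts were -0.16, -0.06 and -0.12. The shares of all genes at 1 or above were 1.42%, 2.16% and 0.135%. Of 10 astrocyte genes, 5, 5 and 3 were at -1 or below and 0 at 1 or above, with medians of -1.11, -0.88 and -0.58, where 10.7%, 9.59% and 9.16% of all genes were at -1 or below. Their summed level was lower in members than in other nuclei in control (5285 against 9652 CPM) and CBP-ablated nuclei (1860 against 2170 CPM) and higher in p300-ablated nuclei (4264 against 3691 CPM).

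Other precursor nuclei, nonmembers under the same limits with at least 5 UMIs of Pdgfra, Cspg4 and Megf11, numbered 587, 289 and 1231. Set beside them, members were within 2-fold in most genes compared. Of 4376, 3355 and 6584 genes compared in the control, CBP-ablated and p300-ablated libraries, 38 (0.868%), 68 (2.03%) and 33 (0.501%) were at least 2-fold higher in members and 2 (0.0457%), 14 (0.417%) and 4 (0.0608%) at least 2-fold lower. The precursor markers were slightly lower in members than in these nuclei, with medians of -0.26, -0.36 and -0.20 on the log2 scale, and this order is partly set by choosing the comparison nuclei on Pdgfra, Cspg4 and Megf11. Smoc1 stood at 269, 272 and 144 CPM in members, against 235, 251 and 185 in other precursor nuclei and 116, 82.1 and 113 in all other nuclei. Its level in members was thus nearer to that of other precursors than to that of all other nuclei in the control and CBP-ablated libraries, and below that of other precursors in the p300-ablated one. Members with at least 5 UMIs of Pdgfra, Cspg4 and Megf11 made up 138 of 281 in control (49.1%), 145 of 230 CBP-ablated members (63.0%) and 230 of 332 p300-ablated members (69.3%), and 27.1%, 21.7% and 38.0% of members had at least 3 UMIs of Kcnj6 and Nell2.

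Genes of later oligodendrocyte stages were among those higher in members than in other precursor nuclei. Of the mature oligodendrocyte genes with enough UMIs, 2 of 3 in control, 6 of 7 in CBP-ablated and 3 of 4 in p300-ablated members were at least 2-fold higher, and so were Rnf220, Zfp536 and St18 of the committed precursor list in each library. The myelin transcripts lay mostly in the members of the oligodendrocyte-like cluster. In these, Mbp, the gene of myelin basic protein, stood at 4025 CPM in control, 5966 in CBP-ablated and 4416 in p300-ablated members, and outside them at 24.4, 143 and 31.1 CPM. They had entered through Kit, which stood at 899, 579 and 667 CPM in them and was seen in all of them but 1 in the p300-ablated library, while Etv1 stood at 78.2, 57.0 and 31.8 CPM and Gpr149 had 0, 2 and 0 UMIs. In members outside that cluster Kit stood at 117, 202 and 146 CPM. Among CBP-ablated members outside it, 36.4% had an Mbp UMI, against 39.3% of microglial nuclei of that library, at median depths of 3574 and 1392 UMIs, and the level was 143 CPM against 671 CPM.

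Marker lists of several other cell types summed to low levels in members. The rule itself limited microglial, neuronal and cell-cycle genes, so low values there were set by the choice of members. Of the microglial list, Ptprc and C1qa had 0 UMIs in all 3 libraries, and the 10 genes summed to 43.7, 37.8 and 28.6 CPM, led by P2ry12 in control and p300-ablated and by Cx3cr1 in CBP-ablated members. Of 8 endothelial genes, Cldn5, Kdr, Egfl7 and Cdh5 were at 0 in every library, and Tek gave most of the sums of 32.5, 51.2 and 19.7 CPM. In other nuclei Cldn5 was at 0 too, and this list summed to 45.68, 64.73 and 36.98 CPM. Mast cells, in which Kit is a defining receptor, had 5 of 6 genes (Cpa3, Mcpt4, Tpsb2, Ms4a2 and Fcer1a) at 0 in all libraries and Hdc at 2, 0 and 0 UMIs. Mcpt4, Tpsb2, Ms4a2 and Fcer1a were at 0 in all other nuclei as well, where the mast cell list summed to 1.313, 0.8439 and 1.04 CPM. Melanocytes also depend on Kit, and the 8 melanocyte and Schwann cell genes summed to 7, 7 and 11 UMIs, with Tyr and Mlana at 0, Dct at 2, 5 and 6 UMIs and Pmel at 1, 2 and 4. The 9 pericyte and fibroblast genes summed to 4, 2 and 2 UMIs. The melanocyte and Schwann cell list stood at 6.508, 7.791 and 6.996 CPM in members, against 9.582, 17.97 and 7.801 in other nuclei. The pericyte and fibroblast list stood at 3.719, 2.226 and 1.272 CPM, against 6.366, 7.089 and 6.53. Low sums of the endothelial, mast cell, melanocyte and pericyte lists were thus shared with the other nuclei and are no trait of members alone. Neuronal, astrocyte and radial glia lists were not near 0. The 15 neuronal genes summed to 2369 CPM in control, 1750 in CBP-ablated and 2345 in p300-ablated members, against 1776, 1946 and 1902 in other nuclei. Map2, a microtubule-associated protein gene, was the most abundant of them at 1036, 1137 and 868 CPM, and Adarb2, of the RNA-editing enzyme family, stood at 934, 341 and 866 CPM. Dlx2 and Sp8 were at 0 in members, as was Tubb3, which was at 0 in all other nuclei too. The radial glia list summed to 307, 391.8 and 391.8 CPM in members, against 954, 1234 and 1470 in other nuclei.

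Of the genes compared, Syt1 had the largest ratio of CBP-ablated to control members. It stood at 32.5 CPM in control (35 UMIs), 217 in CBP-ablated (195 UMIs) and 45.8 in p300-ablated members (72 UMIs). The log2 ratio of CBP-ablated to control members was 2.74 (2.21 to 3.30), and that of p300-ablated to control members 0.49 (-0.11 to 1.12), an interval that includes 0. Syt1 was also higher in the other nuclei of the CBP-ablated library, at 93.2 CPM against 29.3 and 35.1, and in its other precursor nuclei, at 146 CPM against 39.6 and 33.9, and whether members differed from them in this ratio was not tested. Within the precursor-like cluster the members of the 3 libraries were close, at 31.6 CPM in control, 40.5 in CBP-ablated and 35.1 in p300-ablated members. Within the Gpr149-led cluster Syt1 stood at 92.6, 330 and 537 CPM, the last from 29 UMIs in 15 nuclei. Syt1 helped to form that cluster, so its level there is a description.

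Syt1 was highest at sums of 6 or more in each library, with intervals that overlapped those at 4 or 5. In the CBP-ablated library it went from 100 CPM at a sum of 2 through 189 at 3 and 183 at 4 or 5 to 298 at 6 or more. In control the values were 20.4, 24.3, 32.0 and 63.9 CPM and in the p300-ablated library 38.2, 46.5, 39.2 and 62.1 CPM. Smoc1 stood at 163, 213, 243 and 387 CPM over the same steps in the CBP-ablated library and had no such order in control (217, 280, 218 and 339 CPM) or in the p300-ablated library (166, 133, 176 and 102 CPM). Mbp went the other way in the CBP-ablated library, from 1268 and 1428 to 763 and 504 CPM. In the other libraries Mbp was highest at 6 or more, with 201, 57.3, 329 and 543 CPM in control and 148, 172, 93.4 and 717 CPM in p300-ablated nuclei, where 4 of 36 and 4 of 34 members of 6 or more lay in the oligodendrocyte-like cluster.

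**Figure D4:**
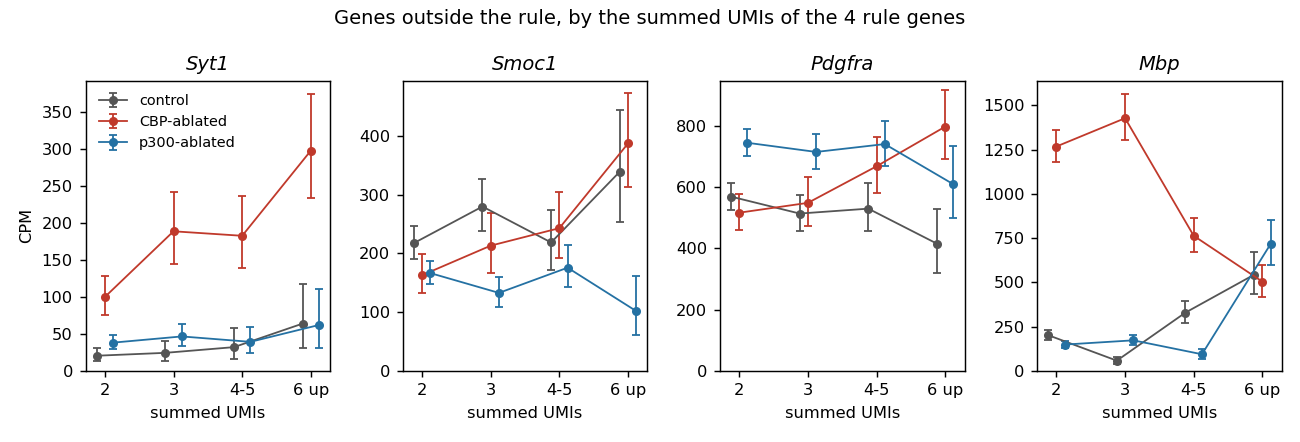
Level (CPM, linear axis from 0) of Syt1, Smoc1, Pdgfra and Mbp in nuclei that passed the exclusions, by their summed UMIs of Gpr149, Ets1, Kit and Etv1, with 95% exact Poisson intervals; nuclei with a sum of 2 are not members. Syt1 in the CBP-ablated library lies above the other libraries at every sum and reaches 298 CPM at 6 or more.

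Split by Gpr149, the members without it had the higher level of Mbp in each library. Mbp stood at 24.9 CPM in control members with a Gpr149 UMI and 270 in those without. The same pair of values was 325 and 1253 CPM in CBP-ablated and 15.3 and 234 CPM in p300-ablated members. Syt1 stood at 66.4 and 22.8 CPM with and without Gpr149 in control, 256 and 197 in CBP-ablated and 35.7 and 47.2 in p300-ablated members. Gpr149 had 0 UMIs in the members of the oligodendrocyte-like cluster in control and p300-ablated nuclei, so their 206 of 231 and 278 of 325 Mbp UMIs all fell among the members without Gpr149. Pdgfra differed little by this split, at 498 and 507, 728 and 625, and 780 and 703 CPM.

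The ablated genes themselves were checked first in the comparisons between libraries. Crebbp stood at 312 CPM in control, 366 in CBP-ablated and 372 in p300-ablated members, and Ep300 at 117, 124 and 97.3 CPM. Counts are summed over the whole gene, the deleted part was not counted by itself, and these levels do not check the ablation.

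For each comparison between libraries, genes with at least 100 UMIs in the members of both libraries together were used, and a gene counts as past the fold at 1 log2 unit. In CBP-ablated against control members, 71 of 3329 genes were higher (2.13%) and 97 lower (2.91%), with a median log2 ratio over all of them of 0.13. With ratios centred on that median, 47 were higher and 130 lower. In p300-ablated against control members, 18 of 3992 were higher (0.451%) and 15 lower (0.376%), with a median of 0.03. In CBP-ablated against p300-ablated members, which leaves out the control, 87 of 3891 were higher (2.24%) and 177 lower (4.55%), with a median of 0.13, or 65 and 220 with centred ratios. The first and second of these comparisons share the control library. They also set members of different clusters against each other, since 57.0% of CBP-ablated members were in the Gpr149-led cluster and most control and p300-ablated members in the precursor-like cluster.

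Among the 10 largest ratios of CBP-ablated to control members were the myelin genes Mobp, Mbp and Cldn11. Mbp stood at 215 CPM in control, 938 in CBP-ablated and 207 in p300-ablated members, a log2 ratio of 2.13 (1.91 to 2.34). At sums of 6 or more the ratio turned to -0.11, with 543 CPM in control and 504 CPM in CBP-ablated members. Mbp was detected there in 13.9% of 36 control members and 41.5% of 65 CBP-ablated members, so the control level rested on few nuclei. Of the list of mature oligodendrocyte genes 5 of 7 compared were past the fold and 0 lower, with a median of 1.55, and Rnf220, Zfp536 and St18 were the 3 of 10 genes of committed precursors that were. Of the 843 Mbp UMIs in CBP-ablated members, 732 lay in the 21 nuclei of the oligodendrocyte-like cluster. That cluster held 3.28% of all control, 16.1% of all CBP-ablated and 4.15% of all p300-ablated nuclei, and Mbp stood at 671 CPM in microglial nuclei of the CBP-ablated library, against 223 and 107 CPM in those of the control and p300-ablated libraries. The part of free RNA and of these nuclei in the other ratios was not tested.

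The other genes of this group were Syt1, Gm41335, Greb1l, Kndc1, Man1a, Grm7 and Bcl11a. Greb1l, a gene required for kidney and inner ear development, stood at 19.5 CPM in control, 87.9 in CBP-ablated and 11.5 in p300-ablated members, and 61 of its 79 CBP-ablated UMIs were in the Gpr149-led cluster. Bcl11a, a zinc-finger transcription factor, stood at 30.7, 120 and 38.2 CPM, with 79 of 108 UMIs in that cluster. Grm7, a metabotropic glutamate receptor, stood at 106, 425 and 79.5 CPM and was raised in the precursor-like cluster too, by 1.76 on the log2 scale. Man1a, a Golgi mannosidase, stood at 67.9, 293 and 90.3 CPM. For all 10 genes the other nuclei of the CBP-ablated library were also above those of the control, by 0.82 (Greb1l) to 2.84 (Mobp) on the log2 scale.

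The smallest ratios of CBP-ablated to control members were those of Gpc5, Slc1a2, Gabrg3, Ltbp1, Inpp4b, Lrfn2, Mcc, Mir670hg, Alk and Lrig1. Gpc5, a cell-surface glypican, stood at 1402 CPM in control, 146 in CBP-ablated and 1476 in p300-ablated members, a log2 ratio of -3.27 (-3.53 to -3.01) in the CBP-ablated library and 0.07 (-0.02 to 0.17) in the p300-ablated one. It was as low in CBP-ablated members of the Gpr149-led cluster (-3.23) and lower than control in those of the precursor-like cluster (-2.18). Slc1a2, the main glutamate transporter of astrocytes, stood at 164, 31.2 and 176 CPM. Of the astrocyte list, all 6 genes compared were past the fold downward in CBP-ablated members, with a median of -1.23, and 2 of 7 in p300-ablated members, with a median of -0.44, where 2.91% and 0.376% of all genes compared were past it downward. The summed astrocyte list stood at 5285 CPM in control, 1860 in CBP-ablated and 4264 in p300-ablated members with Ntm, a cell adhesion gene, as the most abundant, and Aldh1l1 and Gja1 stood at 16.7, 5.57 and 3.82 CPM and 28.8, 10.0 and 14.6 CPM. Gfap, whose protein the paper used to label astrocytes, went the other way with CBP ablated, at 7.44, 41.2 and 16.5 CPM. Aqp4 stood at 34.4, 26.7 and 33.7 CPM.

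Slc7a11, the cystine and glutamate exchanger, is a marker of the cluster of astrocyte-type nuclei that only the control library held (1278, 0 and 0 nuclei). It stood at 78.1 CPM in control members, at 11.4 CPM in p300-ablated members and at 2 UMIs in CBP-ablated members, and at 130, 15.3 and 6.27 CPM in microglial nuclei of the control, CBP-ablated and p300-ablated libraries. Its level in control members was thus below that in microglial nuclei. Gpc5, in contrast, stood at 357 CPM in control microglial nuclei, under the 1402 CPM of control members. Alk, a receptor tyrosine kinase, stood at 170 CPM in control, 43.4 in CBP-ablated and 284 in p300-ablated members, and 325 of the 447 p300-ablated UMIs lay in the precursor-like cluster. Inpp4b, a phosphoinositide phosphatase, stood at 254, 55.7 and 178 CPM.

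**Figure D5:**
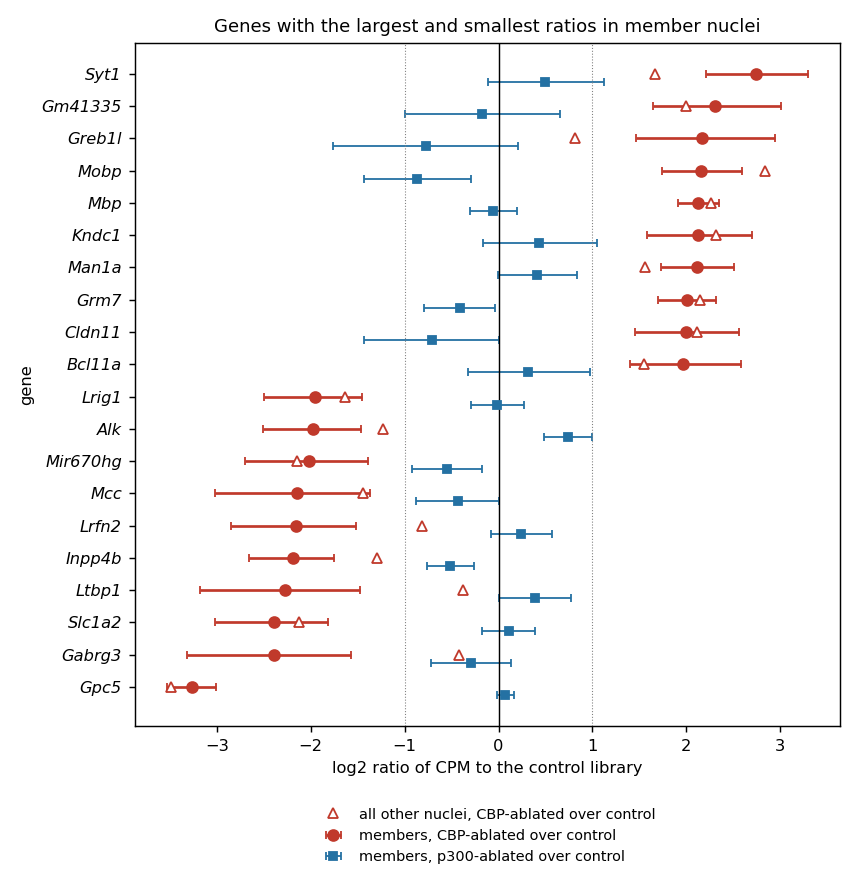
Log2 ratio of CPM to the control library for the 10 genes with the largest and the 10 with the smallest ratio of CBP-ablated to control member nuclei, with 95% conditional binomial intervals. Filled circles are CBP-ablated members, open triangles all other nuclei of the CBP-ablated library and squares p300-ablated members; Gpc5 lies at -3.27 in CBP-ablated and 0.07 in p300-ablated members.

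The gene families that the rule drew on are small, and their counts stand beside shares over all genes of 2.13% upward and 2.91% downward with CBP ablated and 0.451% and 0.376% with p300 ablated. Of 18 ETS-family genes, 6 had enough UMIs in CBP-ablated and control members and 0 of 6 were past the fold, and 0 of 7 in p300-ablated against control members. Ets1 and Etv1, which chose the members, are counted in both. The other 4 in the CBP comparison were Etv5 at -0.62, Elf1 at -0.06, Etv6 at 0.05 and Elf2 at 0.11 on the log2 scale. Etv4, a close relative of Etv1, stood at 66.0 CPM in control, 16.7 in CBP-ablated and 75.0 in p300-ablated members and had too few UMIs for the CBP comparison. Its relative Etv5 stood at 163, 106 and 134 CPM. Of 16 receptor kinases on the list 9 were compared (with Kit, which chose the members, and without Alk, given above, which is not on the list), and 1 was past the fold in each comparison with control. It was Egfr, the EGF receptor, which stood at 315 CPM in control, 104 in CBP-ablated and 98.6 in p300-ablated members, log2 ratios of -1.61 (-1.95 to -1.27) and -1.68 (-1.96 to -1.40). Egfr was lower in the other nuclei of the ablated libraries as well, at 377, 90.6 and 114 CPM. Kitl, which encodes the ligand of Kit, stood at 9.30, 2.23 and 13.4 CPM in members.

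Of 12 genes known to respond to ERK signalling, 4 were compared in CBP-ablated members with 0 past the fold and a median of -0.42, and 6 in p300-ablated members with 1 past it. That gene was Egr1, an immediate-early transcription factor, which stood at 16.7 CPM in control, 13.4 in CBP-ablated and 62.3 in p300-ablated members, a log2 ratio of 1.90 (1.16 to 2.71) in the p300-ablated library. It was also higher in the other nuclei of that library, at 46.9 CPM against 17.9 in control. The feedback inhibitor Spry2 stood at 71.6, 40.1 and 65.5 CPM and was not past the fold in CBP-ablated members. Spry4, at 37.2, 27.8 and 33.1 CPM, had too few UMIs to be compared. Of 21 presynaptic genes, 9 were compared in CBP-ablated members and only Syt1 was past the fold. Unc13c, a vesicle-priming factor with too few UMIs for the comparison, stood at 61.4, 8.90 and 48.3 CPM.

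Of 26 lineage transcription factors, 16 were compared in CBP-ablated against control members, and 2 were past the fold upward (Zfp536 and St18) and 1 downward (Myt1l), with a median of 0.01. Over all genes compared, 2.13% were past the fold upward and 2.91% downward. Intervals lay above 0 for 766 of all 3329 genes compared and below it for 471. Among the 16 factors they lay above 0 for 7 and below it for 5. In p300-ablated against control members 0 of 18 were past the fold, where 0.451% and 0.376% of all genes were. Sox10, a factor of the whole oligodendrocyte lineage, stood at 221 CPM in control, 308 in CBP-ablated and 293 in p300-ablated members, and Olig2 at 84.6, 108 and 96.7 CPM. Of the 14 precursor markers, 13 were compared in CBP-ablated members with 0 past the fold and a median of -0.03, and 14 in p300-ablated members with 0 past it and a median of 0.27. Of the immature neuron-like list, Kcnj6 stood at 67.9 CPM in control, 11.1 in CBP-ablated and 80.1 in p300-ablated members, Nell2 at 412, 407 and 499 CPM and Cacng4, a subunit that regulates AMPA receptors, at 563, 376 and 799 CPM. The log2 ratio of Cacng4 to control was -0.58 (-0.78 to -0.39) with CBP ablated and 0.50 (0.36 to 0.65) with p300 ablated.

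In p300-ablated against control members, Gpr149 was among the 10 smallest ratios, with a log2 ratio of -1.47 (-1.95 to -1.01), and the choice of members partly sets its level. Also among the smallest were those of Slc7a11 (-2.77), Apoe (-1.72), 9630013A20Rik (-1.71), Egfr (-1.68), Myo5b (-1.47), Slc24a5 (-1.45), Car8 (-1.34) and Lingo2 (-1.31). Apoe, an apolipoprotein made by astrocytes, stood at 142 CPM in control, 61.2 in CBP-ablated and 43.2 in p300-ablated members. Among the largest ratios were those of Egr1 (1.90), Hs3st5 (1.81), Sbno2 (1.47), Ndst3 (1.34), Cdh18 (1.33), Sumf2 (1.32), Ebf1 (1.21), Gm49539 (1.11) and Cacna1e (1.10). Hs3st5 and Ndst3 encode enzymes that sulfate heparan sulfate, and Hs3st5 stood at 33.5 CPM in control, 33.4 in CBP-ablated and 118 in p300-ablated members. In the other nuclei the log2 ratio of Hs3st5 was 0.39, and in members of the precursor-like cluster it was 2.09.

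More genes were past the fold between CBP-ablated and p300-ablated members than in either comparison with control. Ndst3 stood at 15.6 CPM in CBP-ablated and 200 in p300-ablated members, the smallest ratio (-3.68), followed by Insyn2b (-3.49), Gpc5 (-3.34), Disp3 (-3.03), Kcnj6 (-2.85), Mertk (-2.74), Alk (-2.71), Ltbp1 (-2.66), Slc1a2 (-2.50) and Gm12394 (-2.44). Insyn2b, Disp3 and Kcnj6 were leading genes of the Kcnj6-led cluster, which held 1 CBP-ablated and 59 p300-ablated members. Among the largest ratios were those of 9630013A20Rik (3.37), Mobp (3.02), Cldn11 (2.71), Gpr149 (2.49), Gm41335 (2.48), 9530059O14Rik (2.48), Grm7 (2.42), Lingo2 (2.39) and Mag (2.30).

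Within 1 cluster fewer members remained, and fewer genes had enough UMIs to be compared. Among members of the precursor-like cluster, 6 of 1265 genes were past the fold upward and 19 downward in CBP-ablated against control. Of these, 1 of the 6 and 12 of the 19 were also past it over all members. Over all members, 4 of the same 1265 genes were past the fold upward and 51 downward. In the Gpr149-led cluster 37 of 1089 were higher and 37 lower, of which 6 and 17 were past the fold over all members. Of the same 1089 genes, 11 and 20 were past it over all members. For p300-ablated against control members of that cluster, 4 of 290 genes were higher and 10 lower, with 15 p300-ablated nuclei behind them. In the precursor-like cluster p300-ablated members had 9 of 2535 genes past the fold upward, Hs3st5, Sumf2, Ndst3 and Cacna1e among them, and 1 downward. Gpc5 and Alk had ratios of -2.18 (-2.73 to -1.68) and -1.50 (-2.38 to -0.72) in CBP-ablated members of the precursor-like cluster, against -3.27 (-3.53 to -3.01) and -1.97 over all members, and Syt1 had one of 0.36 (-1.05 to 1.63) there.

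The pools mixed animals of both sexes in shares that the labels do not give. Thinned to 1500 UMIs, 61.4% of control members, 72.1% of CBP-ablated members and 56.3% of p300-ablated members had an Xist UMI, the transcript of the inactive X chromosome of females, against 51.5%, 69.6% and 52.98% of the other nuclei. Of CBP-ablated members in the Gpr149-led cluster 76.9% had one. A transcript of a Y-linked gene was seen in 13.2%, 17.0% and 16.6% of members and in 23.2%, 16.1% and 22.3% of other nuclei. The Y-linked intervals of members overlapped in all libraries (9.48% to 17.8%, 12.4% to 22.5% and 12.7% to 21.0%). For Xist the interval of CBP-ablated members (65.8% to 77.8%) lay above that of p300-ablated members (50.8% to 61.7%) and overlapped that of control members (55.45% to 67.2%). The part of sex in the differences between libraries was not tested.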

How the data were processed

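Nuclei of 3 pooled cultures were measured with the 10x Genomics 3′ kit. The authors aligned reads with Cell Ranger 3.1 to GRCm38 (mm10), counted UMIs over exons and introns and deposited raw counts for each gene (30559) and nucleus, after their own filter on barcodes. Here all 12549 deposited nuclei were used. The members and the 24 gene lists were chosen with earlier results of these data known. Counts were summed over nuclei of 1 library, divided by their total and given as CPM. Shares have exact binomial (Clopper-Pearson), levels exact Poisson and ratios conditional binomial 95% intervals. Only the ratio intervals were checked on simulated data. These were drawn as Poisson counts, the model behind the intervals, so the check cannot show how UMIs gathered in few nuclei would widen them. Members were compared with other nuclei with 1 CPM added. Named were the rule, marker and list genes, the 15 largest ratios of members over other nuclei and the 10 largest and smallest of each comparison between libraries. All nuclei were clustered with Seurat 5.3.0 (R 4.3.3) on 1617 variable genes, 20 principal components, 30 neighbours and resolution 0.6. Resolution 1.2 was the alternative. Doublets were called by Scrublet in scanpy 1.11.5 and kept. Other nuclei in the text are nonmembers, and microglial nuclei have at least 3 UMIs of the microglial sum. Results on some genes that the rule for named genes would name are not reported here.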

Additional observations from a re-analysis of the deposited data

How the results depend on the processing

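No paired analysis was possible because each condition had 1 library, and for the same reason no replicate could be left out. The share of nuclei that met the rule moved most with the threshold on the 4 genes. In the order control, CBP-ablated and p300-ablated (5.75%, 7.62% and 7.14% in the text), it was 12.4%, 12.6% and 15.5% at sums of 2 or more, 2.54%, 4.77% and 3.08% at 4 or more and 0.737%, 2.15% and 0.731% at 6 or more. With at least 2 of the 4 genes present it was 3.60%, 5.34% and 4.73%, and with Bcas1, Gpr17 and Enpp6 under 4 it was 5.08%, 5.83% and 6.26%. Without that limit the CBP-ablated share was 9.31%. Thinning to 3000 UMIs gave 5.44% in CBP-ablated and 4.53% in p300-ablated nuclei, and thinning to 1500 with a sum of 2 or more, a change of both depth and threshold, gave 5.05% in control and 5.07% in p300-ablated nuclei. The share of members in the Gpr149-led cluster was 12.9% in control and 46.5% in CBP-ablated nuclei at sums of 2 or more, and 68.1% in CBP-ablated nuclei at 4 or more. At 6 or more it was 36.1%, 86.2% and 8.82%, and with 2 of the 4 genes it was 64.6% in CBP-ablated nuclei.

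Counts of genes past the fold moved too. For CBP-ablated against control members (71 higher, 97 lower) they were 131 higher with at least 20 UMIs in each library, 47 higher with centred ratios, 43 higher with Bcas1, Gpr17 and Enpp6 under 4, and 12 and 37 at sums of 6 or more. Of the 651 genes compared at sums of 6 or more, 16 were past the fold upward and 17 downward over all members. Past it in both were 0 genes upward and 15 downward. For p300-ablated against control members (18 and 15) the counts were 41 lower with at least 20 UMIs in each library, 8 and 3 at sums of 6 or more, and 11 and 29 with Bcas1, Gpr17 and Enpp6 under 4. Of the 528 genes compared at sums of 6 or more, 0 were past the fold in either direction over all members. For CBP-ablated against p300-ablated members (87 and 177) the counts were 231 higher with at least 20 UMIs in each library and 21 and 72 at sums of 6 or more. Of these 21 and 72 genes, 6 and 35 were also past the fold over all members. Alternatives within clusters were chosen after seeing the data. In the Gpr149-led cluster they gave 37 and 37 for CBP-ablated against control, 4 higher for p300-ablated against control, and 52 and 39 for CBP-ablated against p300-ablated. In the precursor-like cluster they gave 6 and 19, 9 and 1, and 15 and 61. Fewer nuclei there leave fewer genes with enough UMIs. The ratio of Mbp between CBP-ablated and control members reversed to -0.11 at sums of 6 or more, and that of Syt1 between CBP-ablated and p300-ablated members reversed to -0.70 in the Gpr149-led cluster, and the causes were not tested. Of the ratios of single genes under all alternatives, 418 kept their size within the counting interval, 45 moved and 2 reversed.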
